A study of Mus musculus with 28 samples.

Results

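The question was whether the liver's response to WY-14643 (WY) depends on the loss of 1 copy of Sirt6. The quantity described is the interaction: the log2 fold change of WY over vehicle in Sirt6 heterozygotes (HZ) minus the same change in wild type (WT). A positive value means that the HZ response lay above the WT response. All 28 of the 28 libraries of the series enter it, 7 livers in each of 4 groups, because the contrast needs every group. The animals were 129svj mice of 11 to 13 months. WT mice and HZ mice were given either 0.5% carboxymethylcellulose by gavage (vehicle) or WY at 50 mg/kg in the same carrier, and livers were taken 12 h later. Sex, the construction of the Sirt6 allele, the hour of the day at collection and any pooling are not stated in the labels, so p-values measure the spread between these libraries. The vehicle and WY libraries were deposited as separate tables, and a shift of a gene shared by all libraries of 1 table cancels in the interaction.

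PPARα is a nuclear receptor that binds DNA as a heterodimer with RXR at direct repeats of a hexamer and switches on genes of fatty acid uptake, oxidation and storage. WY-14643 is a synthetic PPARα agonist widely used in rodents, where it drives peroxisomal and microsomal fatty acid oxidation in hepatocytes. Sirt6 is a nuclear NAD-dependent deacylase of histones that has been tied to glucose and lipid metabolism in liver. A gene whose HZ level is low under vehicle and like WT under the agonist gives a positive interaction, and so does a gene that WY lowers in WT and raises in HZ.

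Libraries held 15795201 to 20020078 counts assigned to genes, and 15015 to 16606 genes were detected in each. Sirt6 itself followed the genotype labels. On the CPM scale, counts set to a common library total, its vehicle level was 2.38 ± 0.615 in WT and 1.21 ± 0.180 in HZ, and its WY level was 3.31 ± 0.685 in WT and 1.61 ± 0.359 in HZ (mean ± SD, n = 7). The interaction of Sirt6 was -0.08 ± 0.24 (log2 ± SE, 95% interval -0.57 to 0.42), so the log2 gap between genotypes changed with WY by no more than that interval allows. Hepatocyte genes dominated all libraries, with summed levels of 7550 to 14461 CPM for 15 pericentral markers, against at most 55.1 CPM for 7 adipocyte and 27.97 CPM for 11 exocrine pancreas markers. HZ vehicle animals 30 and 38 and HZ WY animals 14, 15 and 21 lay apart on the second principal component, at 18.4 to 37.6, while the other libraries lay at -12.4 to 5.26. Vehicle animals were numbered 29 to 39 and 71 to 78, and WY animals 2 to 25. Of vehicle animals 71 to 78, 3 were WT and 1 HZ. Neither range of vehicle numbers occurs among the WY animals. Results that rest on the HZ livers that lay apart or on vehicle animals 71 to 78 are given with and without them.

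No gene passed the interaction test. Of 12607 genes tested with edgeR's quasi-likelihood test and Benjamini-Hochberg adjustment, 0 (0%) had an adjusted p below 0.05, and the smallest adjusted p was 0.126, for Dyrk2. At an unadjusted p below 0.05 there were 758 positive genes (6.01% of those tested) and 424 negative genes (3.36%). This split depended on scaling: with DESeq2 size factors in the same edgeR fit it was 594 against 613, and with DESeq2 itself 611 against 610. The median interaction of all genes was 0.019 with TMM scaling and -0.0047 with DESeq2 size factors. DESeq2 passed 3 genes (0.0355% of the 8452 to which it gave an adjusted p), namely Atxn1, Dyrk2 and Rnf125. Voom with quality weights passed 1 (0.00793%), Dyrk2.

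The data bound most differences in response from both sides. The interaction of a gene had a median SE of 0.142, against 0.101 for the WY effect in WT. The 95% interval lay within -1 to 1 for 10842 genes (86.0%) and within -0.5 to 0.5 for 7364 (58.4%). Precision was lowest at low levels: the 95% interval reached a median of 0.87 to each side of the estimate for the 972 genes with a mean under 1 CPM. It reached 0.21 for the 4235 genes between 20 and 100 CPM and 0.22 for the 1477 genes above 100 CPM. An estimate of at least 1 in either direction was seen for 163 genes, 102 of them at an unadjusted p below 0.05.

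At an adjusted p below 0.05 (edgeR), 6815 genes differed between WY and vehicle in WT and 7024 in HZ. Treatment coincides with the deposited table, so a shift between the tables cannot be told apart from the WY effect within a genotype. Such a shift would enter both responses and raise the overlap and correlation given here. In WT, 3454 genes rose (27.4%) and 3361 fell (26.7%), and in HZ 3695 rose (29.3%) and 3329 fell (26.4%). The WT and HZ responses come from different animals, and 5572 genes were called in both, 81.7% of the WT calls and 79.2% of the HZ calls. Of these, 5566 moved in the same direction. Over the 6815 genes called in WT, the regression slope of the HZ on the WT change was 1.00 and Pearson's r was 0.926. Over the 7024 genes called in HZ the slope was 1.11. Choosing genes by 1 genotype favours the changes of that genotype, and genes of a library share its scaling, so slopes and r are descriptions across genes with no test.

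**Figure D1:**
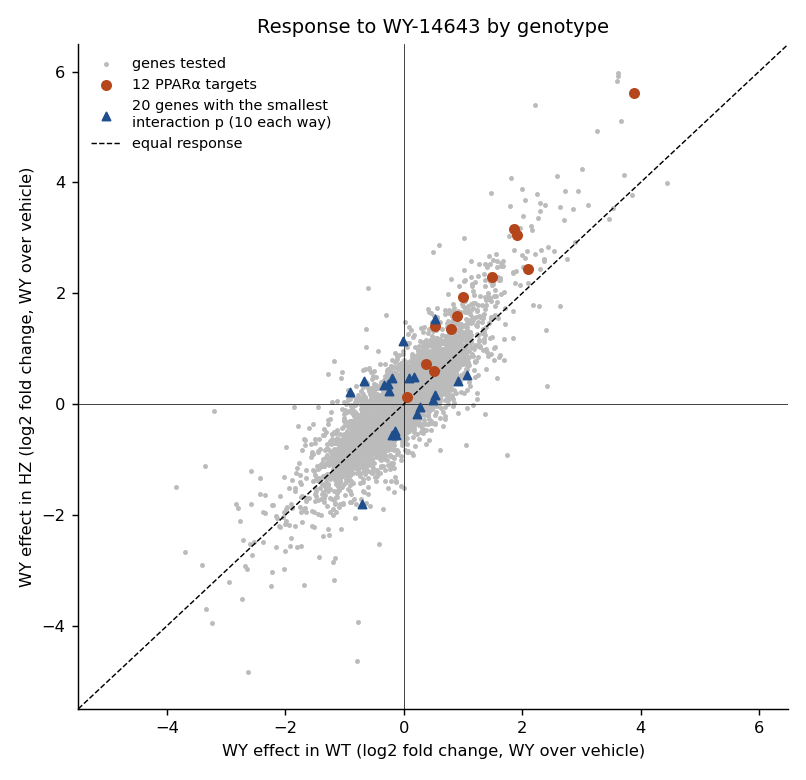
Log2 fold change of WY over vehicle in WT (x axis) and HZ (y axis) for the 12607 genes tested, with the 12 PPARα targets as circles and the 20 genes of smallest interaction p as triangles. Most genes follow the dashed line of equal response, the 12 circles lie on or above it, and several triangles lie in the quadrants where the estimates have opposite signs.

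The 12 textbook targets of PPARα all had positive interaction estimates, 0.09 to 1.72, with a median of 0.76 against 0.019 over all genes. Of the 12, 6 reached an unadjusted p below 0.05 in the positive direction, where 6.01% of all genes did, and none passed adjustment. WY raised 10 of the 12 in WT and 11 in HZ, where 27.4% and 29.3% of all genes rose. The median log2 change of the 12 was 0.95 in WT and 1.77 in HZ. The genotype gap was wider in the vehicle groups: HZ minus WT had a median of -0.82 under vehicle and -0.11 under WY. Under vehicle 2 of the 12, Acot1 and Plin2, were lower in HZ at an adjusted p below 0.05, where 1.77% of all genes were lower and 0.301% higher. Under WY 0 of the 12 passed in either direction (edgeR; 1.42% of all genes were higher and 1.74% lower in HZ).

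Plin2, the coat protein of lipid droplets in hepatocytes (GRCm38 chromosome 4, 86648386 to 86670060, minus strand), had the smallest unadjusted p of the targets. The 250 bases before its RefSeq start (GRCm38.p6, chr4:86670060-86670309, minus strand) are shown because they hold the only match among the targets to the PPARα type of repeat, in capitals.
Plin2: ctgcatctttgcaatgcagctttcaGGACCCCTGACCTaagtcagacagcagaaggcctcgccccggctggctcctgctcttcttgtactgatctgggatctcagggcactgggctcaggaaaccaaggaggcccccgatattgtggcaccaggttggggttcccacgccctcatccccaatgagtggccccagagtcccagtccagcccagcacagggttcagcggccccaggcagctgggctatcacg
The repeat searched was AGGTCANAGGTCA, on both strands, with up to 2 mismatches over the 12 fixed letters, in windows from 250 bases before to 50 bases after a gene's start. The match in Plin2 lies 225 bases before the start and reads AGGTCAGGGGTCC on the opposite strand. Windows were listed for 6 of the 12 targets (Acot1, Cpt1a, Ehhadh, Fgf21, Pdk4 and Plin2), and 1 of the 6 held a match, while 3.86% of the 32851 windows in the table did. A match of letters is a description and shows no binding.

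Plin2 had 320 CPM in the lowest, 1089 in the median and 1360 in the highest WT vehicle liver, and 210, 325 and 833 in HZ vehicle. Under WY the values were 2984, 3482 and 4225 in WT and 2718, 3112 and 4108 in HZ. All WY livers stood above all vehicle livers, and the genotypes overlapped under both treatments. WY raised Plin2 by 1.92 ± 0.28 in WT and by 3.06 ± 0.29 in HZ. Its interaction was 1.14 ± 0.38 (95% interval 0.36 to 1.92, unadjusted p = 0.00571, adjusted p = 0.408, edgeR).

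Pdk4, the kinase that shuts off pyruvate dehydrogenase when fat is burned, had the largest estimate of the 12. Under vehicle it stood at 4.85, 22.02 and 73.6 CPM (lowest, median, highest) in WT and at 5.82, 8.21 and 18.6 in HZ. Under WY it stood at 263, 536 and 921 in WT and at 136, 315 and 1195 in HZ. The WT vehicle livers spanned the whole range of the HZ vehicle livers and beyond it. WY raised Pdk4 by 3.89 ± 0.59 in WT and 5.61 ± 0.65 in HZ, and the interaction was 1.72 ± 0.77 (95% interval 0.14 to 3.30, adjusted p = 0.506, edgeR).

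Acot1, a cytosolic acyl-CoA thioesterase, ranged from 102 to 562 CPM in WT vehicle with a median of 414, and from 24.3 to 335 in HZ vehicle with a median of 92.7. Under WY it ranged from 1148 to 1541 CPM in WT and from 938 to 1512 in HZ, with medians of 1328 and 1081. The interaction of Acot1 was 1.30 ± 0.53 (adjusted p = 0.474, edgeR). The Acot1 to Acot4 genes have near-identical stretches, and reads that fit several places are not in these counts.

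For both oxidation enzymes described here the WT and HZ medians lay close together under WY. Ehhadh, the bifunctional enzyme of the peroxisomal beta-oxidation spiral, had median vehicle levels of 9042 CPM in WT and 4266 in HZ, and median WY levels of 23646 in WT and 22050 in HZ. Cyp4a14, a microsomal omega-hydroxylase, had 7201, 3112, 13379 and 13109 CPM in the same order. For both genes the HZ vehicle range overlapped the WT vehicle range, and every WY liver was above every vehicle liver. Interactions were 0.82 ± 0.35 for Ehhadh and 0.94 ± 0.42 for Cyp4a14, with adjusted p of 0.493 and 0.506 (edgeR). Cyp4a10 gave 0.69 ± 0.35. The Cyp4a genes are near copies of each other as well.

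Vnn1, Fgf21, Cpt1a and Angptl4 did not reach an unadjusted p below 0.05. The pantetheinase gene Vnn1 had an interaction of 0.33 ± 0.59, which was 0.15 without HZ vehicle animal 38 and 1.05 without HZ vehicle animal 34. The fasting hormone gene Fgf21 gave 0.88 ± 0.50. Cpt1a, which admits long-chain fatty acids to mitochondria, was not called for WY in either genotype, and its interaction was 0.09 ± 0.12 (95% interval -0.16 to 0.33). Angptl4, an inhibitor of lipoprotein lipase, rose by 0.52 ± 0.14 in WT and 0.61 ± 0.14 in HZ, with an interaction of 0.09 ± 0.19.

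**Figure D2:**
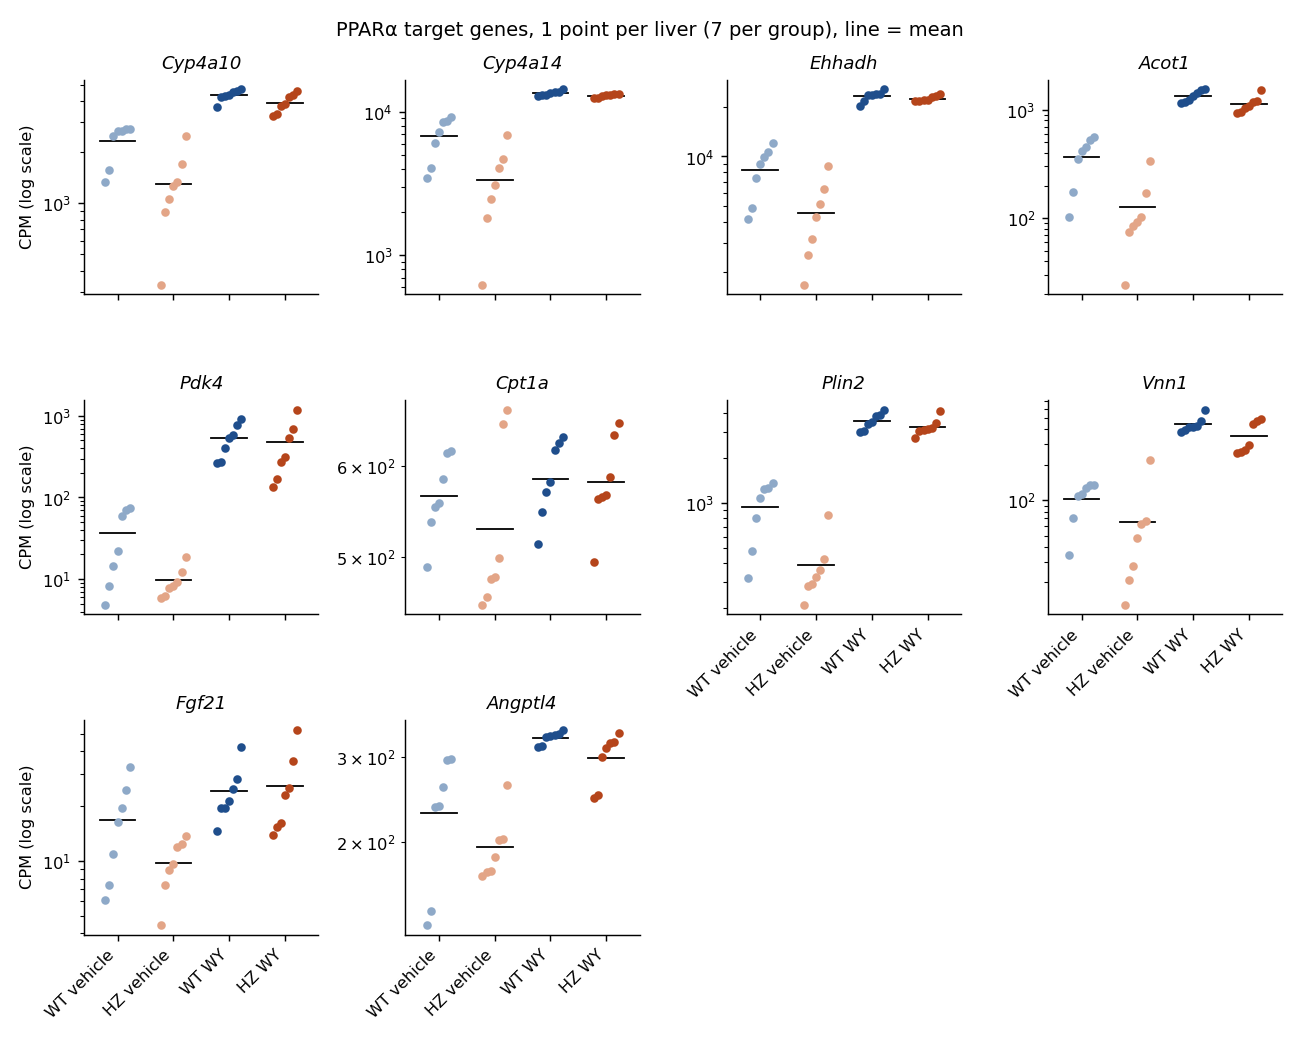
Level of 10 of the 12 PPARα targets in CPM on a log axis, 1 point per liver, ordered by level within a group, with the group mean as a line. The WY groups lie at similar heights, while the HZ vehicle groups have lower means than WT vehicle in all 10 panels.

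Libraries differed in their clock genes, and among WT vehicle livers this moved with the targets. The clock score, the mean log2 CPM of Dbp, Tef, the Per genes and the Rev-erb genes minus that of Arntl, Npas2, Clock and Cry1, averaged 2.78 ± 1.197 in WT and 3.33 ± 0.63 in HZ under vehicle, and 2.92 ± 0.89 in WT and 1.48 ± 1.07 in HZ under WY (mean ± SD, 7 livers each). The HZ mean lay above the WT mean under vehicle and below it under WY. Among WT vehicle livers, animals 31 and 37 had the highest scores, 4.04 and 4.50, and the lowest mean target levels, 8.44 and 8.72 on the log2 scale. The other 5 WT vehicle livers had scores of 1.07 to 3.05 and target means of 9.36 to 9.80. The HZ vehicle livers were less ordered. Animal 38 had the lowest target mean of all 28 livers, 7.41, at the highest HZ vehicle score, 4.03, but animal 34 had the highest target mean of its group, 9.19, at a score above those of animals 30, 35 and 36, whose scores were 3.31 to 3.35 and target means 8.18 to 8.62. With the clock score as a covariate in the edgeR fit the median interaction of the 12 targets was 0.32 in place of 0.76, 10 of the 12 estimates were positive, and 0 reached an unadjusted p below 0.05. The score was measured in the same libraries after treatment, and its genotype gap itself changed with WY. A fit with this covariate can therefore also remove part of an interaction, here and in the lists below.

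**Figure D3:**
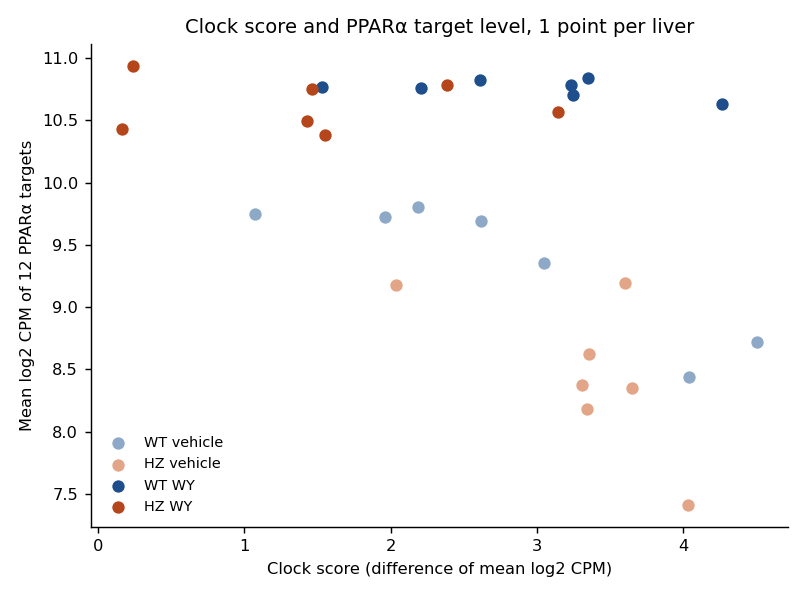
Clock score (x axis, log2 units) against the mean log2 CPM of the 12 PPARα targets (y axis), 1 point per liver, coloured by group. Vehicle livers spread from 7.41 to 9.80, with the lowest WT livers at the highest WT scores, while WY livers stay between 10.4 and 10.9.

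The target result also rests in part on which livers are used. Without the 5 HZ livers that lay apart the median was 0.62, 10 of 12 estimates were positive and 2 reached an unadjusted p below 0.05. With vehicle animals 29 to 39 only, these values were 0.66, 11 and 3, and with a term for vehicle animals 71 to 78 they were 0.65, 11 and 3. Leaving out any 1 library kept all 12 estimates positive, with medians from 0.60 (without HZ vehicle animal 38) to 1.02 (without HZ vehicle animal 34) and 4 to 9 members at an unadjusted p below 0.05. The 9 came without WT vehicle animal 31.

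Lists of the wider fatty acid programme differed in how many members had a positive interaction. Some genes are in more than 1 list, such as Acot3 in the peroxisomal and thioesterase lists, so the counts of these lists are not independent. Counts of positive and negative members below are at an unadjusted p below 0.05, where 6.01% of all genes were positive and 3.36% negative, and estimates above 0, 6839 of 12607 over all genes, are named as such. Members named beyond the 1 with the smallest p were chosen after their values were seen. The peroxisomal oxidation list, which includes Ehhadh, had 32 tested genes, of which 12 were positive (37.5%) and 0 negative, with a median of 0.20. Under vehicle 15 of the 32 were lower in HZ at an adjusted p below 0.05, where 1.77% of all genes were, and under WY 2 were lower and 1 higher. Decr2, a peroxisomal reductase for polyunsaturated chains, had a median of 276 CPM in WT against 195 in HZ under vehicle, and 382 against 363 under WY. Its interaction was 0.32 ± 0.10 (adjusted p = 0.387, edgeR). Pex11a, which divides peroxisomes, gave 1.08 ± 0.35, Crat, a carnitine acetyltransferase, 1.15 ± 0.42, and Abcd3, a transporter that carries acyl-CoA into peroxisomes, 0.71 ± 0.24. Abcd2, a close relative of Abcd3, rose in HZ (1.02), while its change in WT was -0.64 (adjusted p = 0.207, edgeR).

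Mitochondrial oxidation followed with smaller values. Of 25 genes, 7 were positive and 0 negative, with a median of 0.13. Cpt2, the inner membrane carnitine palmitoyltransferase, gave 0.58 ± 0.21, the carnitine-acylcarnitine carrier Slc25a20 0.54 ± 0.20 and the carnitine importer Slc22a5 0.80 ± 0.32. Of 13 acyl-CoA thioesterases 10 had estimates above 0, and 5 were positive at an unadjusted p below 0.05, with a median of 0.35. Acot3 gave 2.27 ± 0.73: its medians were 76.9 CPM in WT and 7.94 in HZ under vehicle, and 232 and 182 under WY. The lowest WT vehicle liver, at 4.85 CPM, stood below the HZ vehicle median.

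Of 29 lipid droplet and lipolysis genes 20 had estimates above 0, and at an unadjusted p below 0.05 8 were positive and 0 negative, with a median of 0.22. G0s2, the inhibitor of the lipase ATGL, had a mean of 160 CPM in WT and 35.3 in HZ under vehicle, and of 636 and 518 under WY, an interaction of 1.88 ± 0.58 (adjusted p = 0.387, edgeR). Mgll, which cleaves monoglycerides, gave 0.61 ± 0.23, and Fitm2, needed to bud droplets from the endoplasmic reticulum, 0.65 ± 0.22. Lipa, the lysosomal acid lipase, had the smallest p of the list at 0.30 ± 0.09. WY raised Lipa in HZ by 0.23, and its change in WT was -0.07 (adjusted p = 0.304, edgeR). Without the 5 HZ livers the counts at an unadjusted p below 0.05 were 7 for peroxisomal, 2 for mitochondrial, 1 for thioesterase and 6 for droplet genes. With the clock score as a covariate they were 1, 0, 0 and 1. Other fatty acid lists had medians closer to that of all genes. Microsomal omega oxidation had 8 of 14 estimates above 0, with 4 positive, 1 negative and a median of 0.07. Fatty acid uptake, binding and activation had 13 of 21 above 0, with 2 positive, 1 negative and a median of 0.09, and ketone body synthesis and export had 5 of 9 above 0, with 1 positive and a median of 0.0072.

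Lipogenesis and desaturation genes had a median interaction of 0.50, with 16 of 19 estimates above 0 and 4 positive at an unadjusted p below 0.05 (21.1%, against 6.01% of all genes). In WT 3 of the 19 rose and 3 fell under WY, where 27.4% of all genes rose and 26.7% fell. In HZ 8 rose and 2 fell, where 29.3% of all genes rose and 26.4% fell. Elovl5, an elongase of polyunsaturated chains, gave 0.64 ± 0.22 (adjusted p = 0.408, edgeR), with a rise of 0.81 in HZ and a change of 0.17 in WT (adjusted p = 0.380, edgeR). Acaca, acetyl-CoA carboxylase, gave 0.54 ± 0.21 and Elovl6 0.59 ± 0.24. The median was 0.49 without the 5 HZ livers and 0.45 with the clock score as a covariate, each with 17 estimates above 0 and 2 at an unadjusted p below 0.05.

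**Figure D4:**
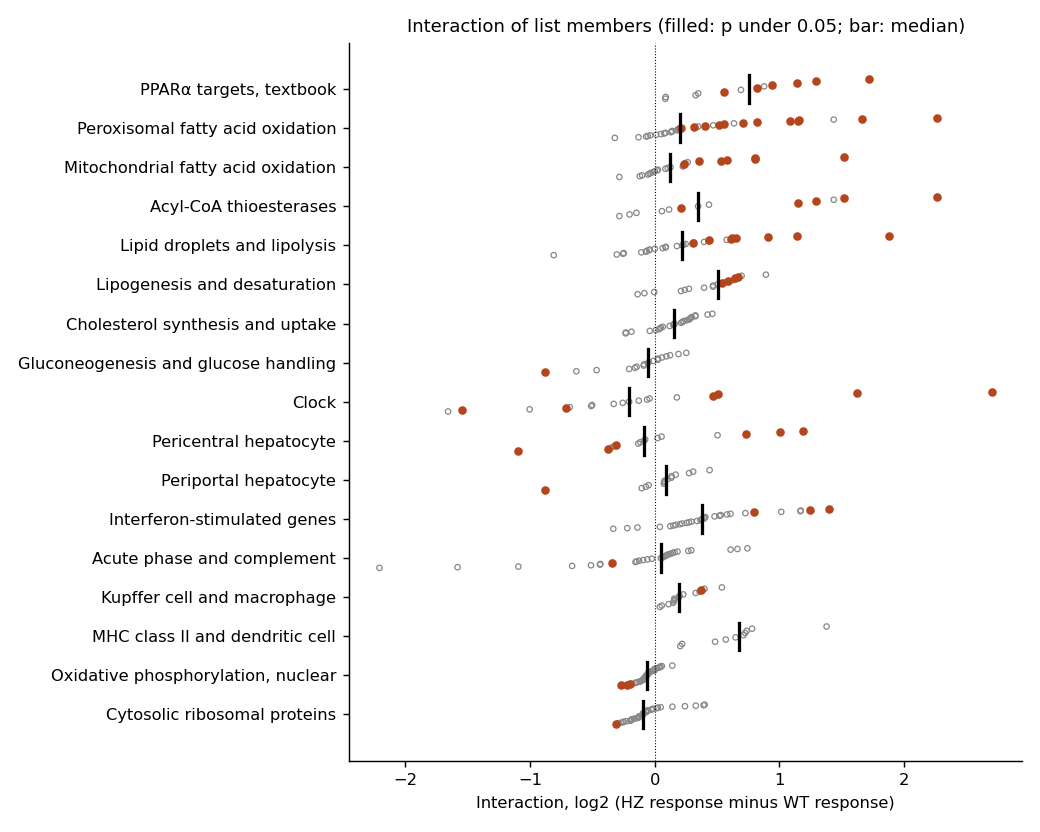
Interaction estimate (x axis, log2) of each tested member of 17 gene lists, filled where the unadjusted p is below 0.05, with the list median as a bar. The 12 PPARα targets have the highest median, 0.76, and respiratory chain and ribosomal protein genes cluster within about -0.3 to 0.4.

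The genes with the smallest p were mostly not fatty acid genes. Dyrk2, a protein kinase that phosphorylates p53 and components of the proteasome, had 24.9, 30.8 and 32.7 CPM (lowest, median, highest) in WT and 19.5, 23.8 and 31.3 in HZ under vehicle. Under WY the values were 20.8, 24.2 and 25.9 in WT and 28.03, 31.2 and 34.3 in HZ. Under WY every HZ liver was above every WT liver, and under vehicle the genotypes overlapped. WY lowered Dyrk2 by 0.33 ± 0.09 in WT and raised it by 0.35 ± 0.09 in HZ, and the interaction was 0.68 ± 0.13 (95% interval 0.42 to 0.93). The adjusted p was 0.126 with edgeR, 0.00661 with DESeq2 and 0.00403 with voom. In edgeR it was 0.0326 without HZ vehicle animal 30 and 0.00789 without HZ vehicle animal 71.

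Atxn1, a transcriptional corepressor gene, had 23.96, 33.0 and 51.1 CPM in WT and 22.5, 27.1 and 34.5 in HZ under vehicle. Under WY it had 17.5, 21.9 and 24.4 in WT and 22.2, 41.8 and 45.7 in HZ. Only the lowest of the 7 HZ WY livers fell within the WT WY range. Atxn1 fell under WY by 0.67 ± 0.16 in WT and rose by 0.42 ± 0.16 in HZ, an interaction of 1.09 ± 0.23 (adjusted p = 0.274, edgeR; 0.0137, DESeq2). Rnf125, a ubiquitin ligase that acts on RIG-I, fell in WT by 0.90 ± 0.19, and in HZ its change was 0.22 ± 0.18 (adjusted p = 0.335, edgeR). Its interaction was 1.12 ± 0.26 (adjusted p = 0.301, edgeR; 0.0451, DESeq2).

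Of the 5572 genes called for WY in both genotypes, 6 had opposite directions. Dyrk2, Atxn1, Proser1, Notch1 and Fzd4 fell in WT and rose in HZ, and Adck4, which supports coenzyme Q synthesis, rose in WT and fell in HZ. Fzd4 was named after its values were seen. The changes of Notch1, a receptor of cell-to-cell signalling, were -0.27 ± 0.11 and 0.36 ± 0.11, and those of Fzd4, a Wnt receptor, were -0.35 ± 0.11 and 0.26 ± 0.11. Calls in opposite directions come with a small interaction p by construction, and all 6 had an unadjusted p below 0.05 and none passed adjustment (edgeR).

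The other positive genes of smallest p were Rqcd1, Axin2, Desi2, Epha2 and Eif4e, with interactions of 0.31 to 1.15. Epha2, an ephrin receptor kinase, had medians of 16.4 CPM in WT and 11.1 in HZ under vehicle, and of 18.5 and 23.4 under WY. It rose by 1.14 ± 0.20 in HZ, and its WT change was -0.01 ± 0.20. Eif4e, the cap-binding factor of translation, was lower in HZ under vehicle (28.4 ± 2.81 against 35.2 ± 1.35 CPM) and alike under WY (39.7 ± 2.09 in HZ and 39.7 ± 2.36 CPM in WT, SD, n = 7).

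The 10 negative genes of smallest p were Pih1d1, Adck4, Ppp1r35, Psip1, Stard3, Exosc6, Ndufaf6, D4Wsu53e, Slc1a2 and Ubxn6, with interactions of -1.10 to -0.33 and adjusted p of 0.301 to 0.325 (edgeR). Pih1d1, part of a chaperone complex that assembles other protein complexes, rose by 0.49 ± 0.07 in WT, and its HZ change was 0.07 ± 0.07 (adjusted p = 0.430, edgeR). Under WY it had 26.8 to 36.1 CPM in WT livers and 20.7 to 28.7 CPM in HZ livers. Ubxn6, a cofactor of the segregase VCP, rose by 0.53 ± 0.07 in WT, and its HZ change was 0.17 ± 0.07 (adjusted p = 0.0613, edgeR), and its level under WY was 53.2 to 64.2 CPM in WT against 34.4 to 52.7 CPM in HZ, without overlap. Ndufaf6, a complex I assembly factor, and Psip1, a chromatin reader, fell by 0.56 each in HZ.

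**Figure D5:**
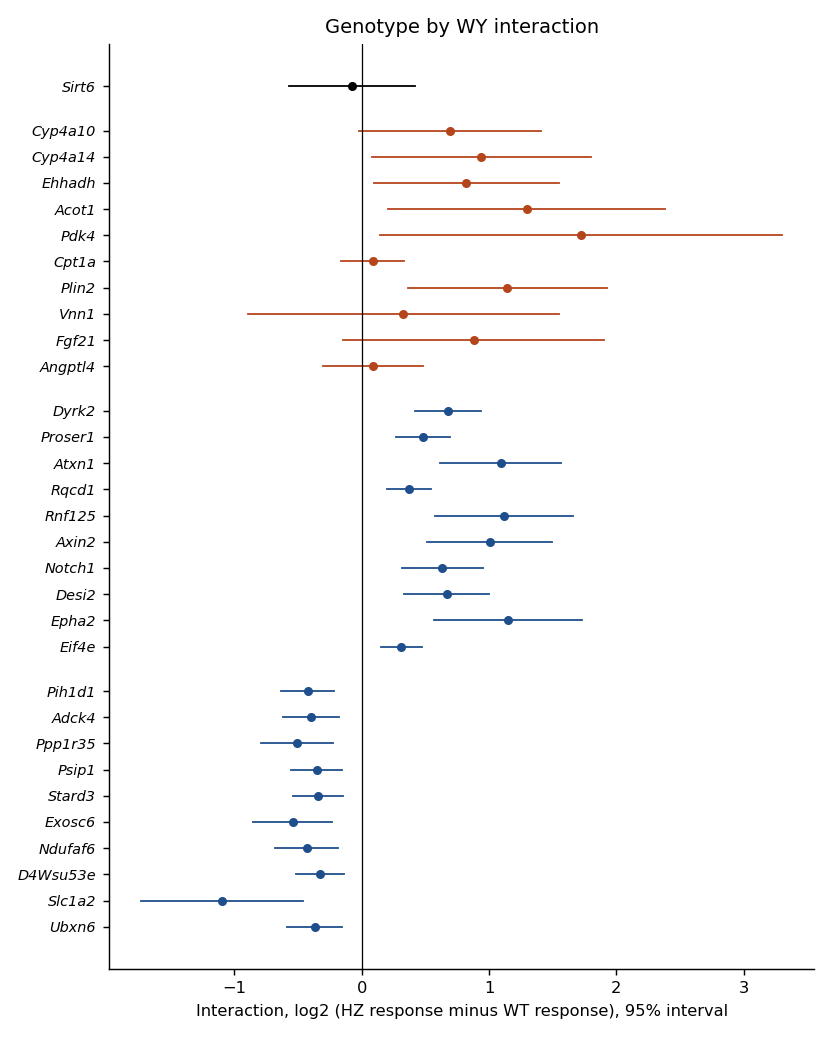
Interaction estimate with its 95% interval (x axis, log2) for Sirt6, 10 of the 12 PPARα targets and the 10 positive and 10 negative genes of smallest p. Intervals of the targets differ in width, from that of Cpt1a at -0.16 to 0.33 to that of Pdk4 at 0.14 to 3.30. Those of Dyrk2 and Proser1 are 0.42 to 0.93 and 0.27 to 0.69.

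Wnt-responsive genes of the pericentral zone went in both directions. Of 15 pericentral markers, 6 had estimates above 0, and the median was -0.09. At an unadjusted p below 0.05, 3 were positive and 3 negative, or 20% each, against 6.01% and 3.36% of all genes. Axin2, a feedback inhibitor and standard reporter of Wnt signalling, had 7.82 ± 2.06 CPM in WT and 5.87 ± 1.29 in HZ under vehicle, and 11.2 ± 2.38 and 17.0 ± 4.20 under WY (mean ± SD, 7 livers each). It rose in both genotypes, by 0.52 ± 0.17 and 1.53 ± 0.17, with an interaction of 1.01 ± 0.24 (adjusted p = 0.301, edgeR). Rnf43, which removes Wnt receptors from the membrane, gave 0.73 ± 0.19 and the transcription factor Tbx3 1.19 ± 0.31. Slc1a2, a glutamate transporter of the same zone, gave -1.10 ± 0.31, and the P450 genes Cyp2e1 and Cyp1a2 gave -0.31 ± 0.14 and -0.37 ± 0.17. Among the 6 genes named here, the Wnt pathway genes and Tbx3 were positive and the transporter and P450 genes negative. These genes were chosen by their p, so the split does not describe the rest of the list, which holds other Wnt-responsive genes. Without the 5 HZ livers the counts were 4 and 3, and with the clock score as a covariate 3 and 2.

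Clock genes had the widest spread of any list with at least 5 tested members, from -1.66 to 2.70. Of 19, 6 had estimates above 0, and the median was -0.20. At an unadjusted p below 0.05, 4 were positive and 2 negative (21.1% and 10.5%, against 6.01% and 3.36% of all genes). Without the 5 HZ livers these counts were 4 and 3. With vehicle animals 29 to 39 only, and with a term for vehicle animals 71 to 78, they were 4 and 0. Npas2 gave 2.70 ± 0.76, at means of 1.10 CPM in WT and 0.513 in HZ under vehicle, and 0.725 and 2.23 under WY. Arntl gave 1.63 ± 0.64, and the output factor Dbp gave -1.54 ± 0.68, with 40.7, 42.2, 32.1 and 11.4 CPM in the same order. Rora, which activates Arntl, fell in both genotypes, by 0.74 in WT and 0.27 in HZ (interaction 0.47 ± 0.13). Arntl and Npas2 on the one side and Dbp and Tef on the other had opposite signs, and no member passed adjustment (edgeR). Any difference in collection time between the groups cannot be told apart from genotype and treatment here.

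The immune lists described here had medians above 0 and differed in how far they rested on a few livers. Of 31 interferon-stimulated genes, 28 had estimates above 0, where 6839 of all 12607 genes did, with a median of 0.38. At an unadjusted p below 0.05, 3 of the 31 were positive (9.68%, against 6.01% of all genes). WY lowered 21 of them in WT and 9 in HZ, where 26.7% and 26.4% of all genes fell. Oasl1, a sensor-like protein induced by interferon, fell by 1.21 in WT, with a change of 0.04 in HZ (adjusted p = 0.936, edgeR). One WT vehicle liver, animal 76, had 15.1 CPM of Oasl1 while the median of its group was 3.10. Without that liver the interaction of Oasl1 was 0.58 in place of 1.24. The interferon list had 28 estimates above 0 without the 5 HZ livers, with a median of 0.22, and 18 with vehicle animals 29 to 39 only, with a median of 0.07. Acute phase and complement genes had 16 of 31 estimates above 0 (median 0.05) and NF-kB targets and cytokines 10 of 18 (median 0.21), with at most 1 member at an unadjusted p below 0.05 in either direction.

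Estimates of all 15 Kupffer cell and macrophage markers were above 0, with a median of 0.19 and 1 at an unadjusted p below 0.05. Their summed level under vehicle was 539 to 677 CPM in WT and 520 to 1072 in HZ, and under WY 403 to 636 in WT and 472 to 1212 in HZ. All 10 MHC class II and dendritic cell markers were above 0, with a median of 0.68 and 0 at an unadjusted p below 0.05 (edgeR). Their summed level reached 895 CPM in 1 HZ WY liver against at most 150 CPM in WT WY. Under vehicle the highest summed level was 572 CPM in HZ and 207 CPM in WT. Neutrophil and monocyte markers had 6 of 7 estimates above 0, with a median of 0.58 and 0 at an unadjusted p below 0.05 (edgeR). Without the 5 HZ livers 9 of 15, 8 of 10 and 4 of 7 were above 0, with medians of 0.05, 0.16 and 0.12. With the clock score as a covariate the medians were 0.37, 1.32 and 1.48, and 1, 6 and 3 members were positive at an unadjusted p below 0.05. More cells of a type and more RNA per cell cannot be told apart in bulk liver.

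Other programmes were counted at an unadjusted p below 0.05 in the same way. Cholesterol synthesis and uptake genes gave 0 of 25 in either direction (edgeR), with a median of 0.16. Under WY 10 of them fell in WT and 5 in HZ, where 26.7% and 26.4% of all genes fell. Without the 5 HZ livers 3 of the 25 were positive and the median was 0.37, and with vehicle animals 29 to 39 only these values were 3 and 0.30. With a term for vehicle animals 71 to 78 they were 0 and 0.21, and with the clock score as a covariate 0 and 0.05. Of 40 respiratory chain genes 32 rose under WY in each genotype, where 27.4% of all genes rose in WT and 29.3% in HZ. Of the 40, 0 had a positive and 3 a negative interaction (7.5%, against 3.36% of all genes), and the median was -0.06. With DESeq2 size factors 6 of the 40 were negative. With vehicle animals 29 to 39 only 1 was, and with a term for vehicle animals 71 to 78 0 were. With the length trend removed 2 were positive and 2 negative. Under WY 12 of the 40 were lower in HZ at an adjusted p below 0.05 (edgeR), where 1.74% of all genes were. Under vehicle 1 of the 40 was, where 1.77% of all genes were. HZ minus WT had a median of -0.13 under vehicle and -0.20 under WY for these genes. Of 40 cytosolic ribosomal protein genes 32 rose in WT and 29 in HZ, where 27.4% and 29.3% of all genes rose. Of these 40, 1, Rpl18, had a negative interaction (2.5%, against 3.36% of all genes). That count was 4 with DESeq2 size factors and 4 with the length trend removed.

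Among 23 genes of the unfolded protein and integrated stress response 4 were negative (17.4%, against 3.36% of all genes), one of them the chaperone Hspa5 at -0.42 ± 0.14. The count was 1 to 5 under the other settings, with the lowest under the clock score. Of 21 drug-metabolising P450 genes 1 was positive and 4 were negative. Igfbp1, a fasting-induced binding protein of insulin-like growth factors, gave -1.55 ± 0.50, with a rise of 1.37 in WT and a change of -0.17 in HZ (adjusted p = 0.699, edgeR). Plk3, a stress kinase, gave -1.80 ± 0.54, and its WT WY group held 1 liver, animal 19, at 164 CPM against a median of 29.7. Without that liver the interaction of Plk3 was -1.07. Ppara itself gave 0.35 ± 0.13 (adjusted p = 0.435, edgeR), with a mean of 561 CPM in WT and 438 in HZ under vehicle, and of 485 and 482 under WY.

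Positive and negative interactions differed in where the genotypes parted. Among the 758 positive genes, HZ minus WT had a median of -0.21 under vehicle and 0.19 under WY, and the gap was larger under vehicle in 408. In 236 of them the WY estimates had opposite signs in the genotypes. Among the 424 negative genes the medians were 0.12 under vehicle and -0.21 under WY, and the gap was larger under vehicle in 139. These genes were chosen by the interaction, so the counts describe them and test nothing. Longer transcripts had higher estimates: the median was -0.04 in the shortest of 4 equal length groups and 0.06 in the longest. With that trend removed the split of positive and negative genes was 628 against 553, and the median of the 12 targets was 0.78.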

How the data were processed

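Liver RNA of 28 mice was sequenced, 7 per group. Per the labels' protocols, RNA was extracted with Trizol from flash-frozen liver and the NEBNext Ultra kit was used for libraries. Per the submitters' processing notes, STAR 2.5.0a, HTSeq 0.6.1p1 and DESeq2 1.18.1 were used with mm10, and no source used here names the annotation or the strand setting. The deposited values are unnormalized read counts for each gene symbol, in a table of vehicle and a table of WY libraries made by the authors. Of a library's counts, summary rows included, 35.8 to 42.6% were in the row for alignments that are not unique. The row for no gene held 6.35 to 9.08%. These summary rows (5 per table) were left out. So were gene names turned into dates, 25 rows in one table and 27 in the other. The 23393 other symbols were joined.

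Genes were kept by filterByExpr, scaled by TMM and tested with edgeR 4.0.16 (R 4.3.3, robust quasi-likelihood fit, 24 residual degrees of freedom) at a Benjamini-Hochberg adjusted p below 0.05. The SE was taken from the log2 fold change and the F statistic. CPM values of single genes use TMM library sizes, and log2 CPM a prior count of 2. Summed marker levels use library totals of all joined symbols, without TMM. Alternatives used DESeq2 1.42.0, voom (limma 3.58.1), other filters and scalings, and fewer libraries. The fit was tested on simulated data. Animal numbers do not recur between groups, so nothing was paired.

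Named genes are Sirt6, 12 PPARα targets, genes that any tool passed, the 10 positive and 10 negative genes of smallest p with a mean of at least 5 CPM (unnamed gene models left out) and the member of smallest p of each list with at least 5 tested members. Of 41 lists with 797 members, 784 were found, 6 of them by an older symbol. At least 5 members were tested in 36 lists. Members and lists were chosen with earlier results of these data known. Some of the named genes are counted in their lists but not reported here. Promoter windows are from RefSeq and gene positions from GENCODE M21.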

Additional observations from a re-analysis of the deposited data

Results flagged for a closer look

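Single livers stood apart in 5 of the 124 gene and group combinations tested with Dixon's 95% criterion, where chance flags about 1 in 20. HZ vehicle animal 71 was highest for Angptl4, at 262 CPM with the next liver at 202.5, and for Rnf125, at 65.2 CPM against 45.2. WT WY animal 6 was highest for Rnf125, at 43.3 CPM against 29.2. HZ vehicle animal 38 was lowest for Desi2, at 14.5 CPM against 16.8, and HZ WY animal 21 for Ubxn6, at 34.4 CPM against 44.4.

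The response to WY differed between genotypes by the test of the difference itself in tools other than edgeR. DESeq2 gave Atxn1 1.07, Dyrk2 0.65 and Rnf125 1.10 on the log2 scale, and voom gave Dyrk2 0.76. The causes were not tested.

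Rows whose gene names had become dates were left out of the comparisons. They held 0.147 to 0.161% of the gene counts in vehicle libraries, and the lowest WY library had 0.224%, above all of them.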

How the results depend on the processing

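The interaction passed 0 genes with edgeR in the 9 alternatives of scaling, filter, spread, library choice and covariate that kept the edgeR test, 3 with DESeq2 and 1 with voom quality weights, and 0 to 1 without each library in turn (1, Dyrk2, without HZ vehicle animal 30 or 71). The count at an unadjusted p below 0.05 was 1182, 2114 with voom and 931 to 1646 without each library. Among the named genes, signs reversed for 4: Sirt6 was 0.0037 and Vnn1 -0.049 without the 5 HZ livers, Fgf21 was -0.16 with the clock score as a covariate, and Angptl4 was -0.045 without the 5 HZ livers, -0.070 with vehicle animals 29 to 39 only, -0.067 with a term for animals 71 to 78 and -0.13 with the clock score. The causes were not tested. Of the estimates of the 66 named genes under the alternatives other than leaving out 1 library, 711 kept their sign and their side of the threshold, 7 reversed and 4 passed. No paired analysis was possible because animal numbers do not recur between groups. Low counts limit what can be seen: under 1 CPM the 95% interval reached a median of 0.87 to each side.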
